A study of Mus musculus with 2 samples.

Results

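The connecting tubule is the stretch of the nephron between the distal convoluted tubule and the collecting duct. Its cells were picked from single-cell RNA counts of mouse kidney cortex by a fixed rule on 8 genes. The rule took 165 of 15488 kept barcodes. Of these, 102 came from the 5076 kept barcodes of the PT I-PpoI library and 63 from the 10412 kept barcodes of the Wild-Type library. A cell needed 5 or more unique molecular identifiers (UMIs, counted RNA molecules) of Calb1 per 10000 UMIs, and 1 or more UMI of Slc8a1 or Trpv5. It also had to hold under 5 per 10000 of Slc12a3 and of Slc12a1, under 2 per 10000 of Atp6v1g3, and 0 UMIs of Pecam1 and Ptprc. These 8 genes chose the cells, so their values are given as a description.

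PT I-PpoI, titled PT-I_Ppo-1 in the labels, was kidney cortex at 16 weeks of age with I-PpoI expression in proximal tubule epithelium, per the series title. I-PpoI is an endonuclease whose cuts leave double-strand breaks in DNA. Wild-Type was kidney cortex of the same age, and both were digested with collagenase and protease at 37 °C. The labels name no promoter, Cre line, strain or number of animals per library, and no feature of the count tables stood for the transgene. Each group had 1 library, so no test between groups was possible. Every interval below is an exact 95% interval that covers counting error only, with UMIs or cells taken as independent.

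Connecting tubule cells carry out hormone-regulated calcium reabsorption. Calcium enters through the apical channel Trpv5, is carried across the cell by the binding proteins calbindin-D28k (Calb1) and calbindin-D9k (S100g), and leaves through the sodium-calcium exchanger Slc8a1 and the plasma membrane calcium pumps. Parathyroid hormone and active vitamin D act on this route. The same segment holds the epithelial sodium channel and aldosterone-responsive genes, and secretes tissue kallikrein (Klk1), a serine protease that releases kinins. Its later cells share the water channel Aqp2 with principal cells of the collecting duct.

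S100g and Klk1, the genes of this segment that the rule did not use, are the ones on which the cells divide below, so the promoter windows of both are shown. RefSeq sequences of GRCm38.p6 were matched by symbol, each with 250 bases before and 50 bases from the annotated gene start, printed 5′ to 3′ on the gene's strand. Capitals mark TATAAA, a core promoter motif, together with AGGTCA, a half-site that nuclear receptors such as the vitamin D receptor can bind. The related half-site GGTTCA is marked too, and both strands were searched.
S100g, chrX:162964550-162964849, minus strand: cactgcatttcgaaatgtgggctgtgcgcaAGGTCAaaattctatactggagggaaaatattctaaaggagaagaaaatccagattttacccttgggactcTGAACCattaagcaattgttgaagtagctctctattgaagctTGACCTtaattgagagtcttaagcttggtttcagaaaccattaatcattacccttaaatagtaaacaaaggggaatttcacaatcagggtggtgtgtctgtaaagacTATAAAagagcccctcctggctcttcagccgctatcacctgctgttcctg
Klk1, chr7:44225110-44225409, plus strand: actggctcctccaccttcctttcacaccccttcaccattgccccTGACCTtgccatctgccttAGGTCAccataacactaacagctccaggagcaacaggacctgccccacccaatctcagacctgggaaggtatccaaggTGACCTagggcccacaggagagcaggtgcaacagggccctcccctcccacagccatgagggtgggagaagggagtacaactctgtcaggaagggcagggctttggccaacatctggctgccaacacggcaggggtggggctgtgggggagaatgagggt
The S100g window held 4 matches, which did not overlap. TATAAA began at base 251 of the window on the gene's strand, which is the annotated gene start and not a base before it. AGGTCA began at base 31 on the same strand and at base 144 on the other, and GGTTCA at base 102 on the other strand. The Klk1 window held 3 matches of AGGTCA, at base 64 on the gene's strand and at bases 45 and 142 on the other. Over all 32544 distinct windows of the same length, TATAAA occurred on either strand in 13.6%, AGGTCA in 16.2% and GGTTCA in 10.4%. A match of 6 letters is a description of these windows and shows no binding.

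Connecting tubule cells were 2.01% (interval 1.64 to 2.43) of kept barcodes in PT I-PpoI, against 0.605% (0.465 to 0.773) in Wild-Type. The neighbouring segments differed in the same direction. A distal convoluted tubule gate (Slc12a3 at 5 or more per 10000) took 9.97% of kept PT I-PpoI barcodes and 2.31% of kept Wild-Type barcodes. A principal cell gate (Aqp2 at 5 or more, Calb1 below 5) took 3.29% of PT I-PpoI barcodes and 1.33% of Wild-Type barcodes. Of the cells in the 3 gates together, connecting tubule cells made up 13.2% (10.9 to 15.7) in PT I-PpoI, against 14.3% (11.1 to 17.9) in Wild-Type. These 2 intervals overlap.

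Depth was greater in the PT I-PpoI cells, at a median of 15067.5 UMIs against 8306 in Wild-Type, and a median of 3987.5 against 2723 genes. Mitochondrial UMIs made up a median of 16.5% in PT I-PpoI, against 15.6% in Wild-Type cells. Over all kept barcodes the medians were 11633 UMIs (PT I-PpoI) and 3344 UMIs (Wild-Type), and 19 kept barcode sequences occurred in both libraries. Some cells carried many UMIs of another cell type's markers, 1 cell in PT I-PpoI (mural markers at 1409 per 10000) and 6 in Wild-Type (4 with proximal tubule markers at 100 or more per 10000, 1 with immune and 1 with endothelial markers at 20 or more). Results that rest on them are given with and without these 7 cells where these cells changed them, under limits set after their values were seen. The 18 proximal tubule markers summed to 33.3 CPM (UMIs per 1000000) in PT I-PpoI cells, with 5 at 0 including Pck1 and Napsa, and to 4108 CPM in Wild-Type cells, with none at 0. Without the 7 cells the sums were 33.2 CPM in PT I-PpoI, against 1207 CPM in Wild-Type. From these markers in the cells without the 7, free RNA was estimated at 2.27% of UMIs in PT I-PpoI, against 6.23% in Wild-Type.

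Of the genes the cells had to carry, Calb1 stood at similar levels in both groups. Calb1 (chromosome 4, 15881264 to 15908064) ranged over 5.07, 15.7 and 117 per 10000 (lowest, median, highest) in PT I-PpoI and over 5.47, 16.5 and 106 in Wild-Type. The ranges overlapped almost wholly. The cells nearest the Calb1 threshold were at 5.07 inside and 4.96 outside in PT I-PpoI, and at 5.47 inside and 4.98 outside in Wild-Type. Slc8a1 was read in 82 of 102 PT I-PpoI cells and 42 of 63 Wild-Type cells, and Trpv5 in 63 and 41. Their summed levels were lower in PT I-PpoI, at 104 CPM against 149 CPM for Slc8a1 and 63.9 CPM against 96.7 CPM for Trpv5. In 39 PT I-PpoI cells and 30 Wild-Type cells a single UMI of the pair carried the criterion. Failing Slc12a3 alone kept out 188 PT I-PpoI and 43 Wild-Type barcodes, so the Slc12a3-positive cells that border on the connecting tubule are not among those described. Failing only the criterion of 1 UMI of Slc8a1 or Trpv5 kept out more, 211 PT I-PpoI and 143 Wild-Type barcodes. Deeper cells meet that criterion more easily, and its part in the shares of kept barcodes was not tested.

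S100g divided the cells into separate sets in both libraries. S100g (chromosome X, 162961992 to 162964599) ranged over 0, 170 and 977 per 10000 in PT I-PpoI and over 0, 294 and 1024 in Wild-Type. Between 20 and 80 per 10000 there was 1 cell in PT I-PpoI, against 0 in Wild-Type. At a limit of 50, set in this gap after the values were seen, 62 of 102 PT I-PpoI cells (60.8%, 50.6 to 70.3) and 49 of 63 Wild-Type cells (77.8%, 65.5 to 87.3) were S100g-high. With each cell thinned to 2000 UMIs, the shares were 60.4% of 101 cells in PT I-PpoI, against 77.0% of 61 cells in Wild-Type. The rule was applied before thinning, and deeper cells meet its criterion of 1 UMI of Slc8a1 or Trpv5 more easily. Thinned shares, here and below, therefore do not remove depth from the choice of cells, and its part was not tested. The remaining 40 PT I-PpoI and 14 Wild-Type cells had medians of 0.58 and 0.72 per 10000, so they met the rule with S100g, a marker of the segment, close to 0. They are called S100g-low and given no cell type name, and "connecting tubule cells" means all cells the rule took, with these included.

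Klk1 divided the S100g-high cells again, and fewer of them were Klk1-high in PT I-PpoI. Klk1 (chromosome 7, 44225360 to 44229618) ranged over 0, 1.63 and 639 per 10000 in PT I-PpoI and over 0, 20.4 and 1231 in Wild-Type. The ranges overlapped, and the upper end was higher in Wild-Type. At 20 or more per 10000, a limit also set afterwards with 3 cells of each library between 10 and 40, the Klk1-high cells were 22 of 62 S100g-high cells in PT I-PpoI (35.5%, 23.7 to 48.7) and 32 of 49 in Wild-Type (65.3%, 50.4 to 78.3). After thinning the shares were 36.1% (24.2 to 49.4) in PT I-PpoI, against 63.8% (48.5 to 77.3) in Wild-Type, and without the cells rich in other markers 36.1% and 64.4% (48.8 to 78.1). At 100 or more per 10000 they were 22.6% and 53.1%. Among S100g-low cells Klk1-high cells numbered 0 of 40 in PT I-PpoI, which by a floor of 3 counts allows a share of up to 7.5%, and 0 of 14 in Wild-Type, which allows up to 21.4%.

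**Figure D1:**
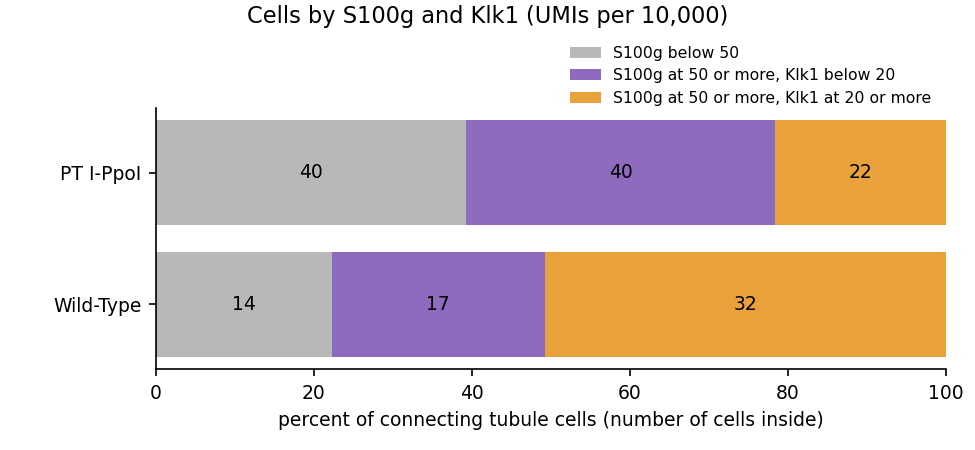
Percent of the cells taken by the rule in 3 sets by S100g and Klk1 (UMIs per 10000), PT I-PpoI above Wild-Type, with the number of cells inside each bar. Cells high for both genes number 22 of 102 in PT I-PpoI, against 32 of 63 in Wild-Type.

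Klk1 was also lower within the Klk1-high cells, a set cut on Klk1 itself, so the size of that difference depends on the limit. Summed over all connecting tubule cells it stood at 4573 CPM in PT I-PpoI, against 26271 CPM in Wild-Type, a log2 ratio of -2.52 (-2.56 to -2.48). In S100g-high cells the levels were 8512 and 35233 CPM (log2 -2.05), and in Klk1-high cells 22630 and 47441 CPM (log2 -1.07, -1.11 to -1.03). Klk1-high cells had a median of 134 per 10000 (29.6 to 639) in PT I-PpoI, against 494 (20.4 to 1231) in Wild-Type. Klk1b5, a related kallikrein whose reads may be shared with Klk1, had 13 UMIs in PT I-PpoI, against 25 in Wild-Type (log2 -2.48, -3.59 to -1.48). Both of the kallikrein genes measured, of 14 in the tables, were 2-fold or more lower.

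Klk1 was also present in free RNA, and its part in the Klk1 difference was not tested. Barcodes of 100 or fewer UMIs, which hold RNA free in the suspension, carried Klk1 at 2462 CPM in PT I-PpoI, against 723 CPM in Wild-Type. Among immune cells thinned to 2000 UMIs, which should lack Klk1, 20.1% had a UMI in the PT I-PpoI library and 16.3% in the Wild-Type library. Of connecting tubule cells thinned alike, 42.6% had one in PT I-PpoI, against 60.7% in Wild-Type. Subtracting the estimated free RNA moved the Klk1 log2 ratio from -2.03 to -2.09 in S100g-high cells without those rich in other markers. The neighbouring gates also had less Klk1 in PT I-PpoI. The log2 ratio was -1.24 in the distal convoluted tubule gate and -5.03 in the principal cell gate (119 CPM in PT I-PpoI, 3887 CPM in Wild-Type). In the principal cell gate 60 of 139 Wild-Type barcodes had under 2000 UMIs, against 5 of 167 in PT I-PpoI. Barcodes so shallow can miss Calb1, so connecting tubule cells may have entered that gate, more so in Wild-Type. Their part in its ratio was not tested.

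**Figure D2:**
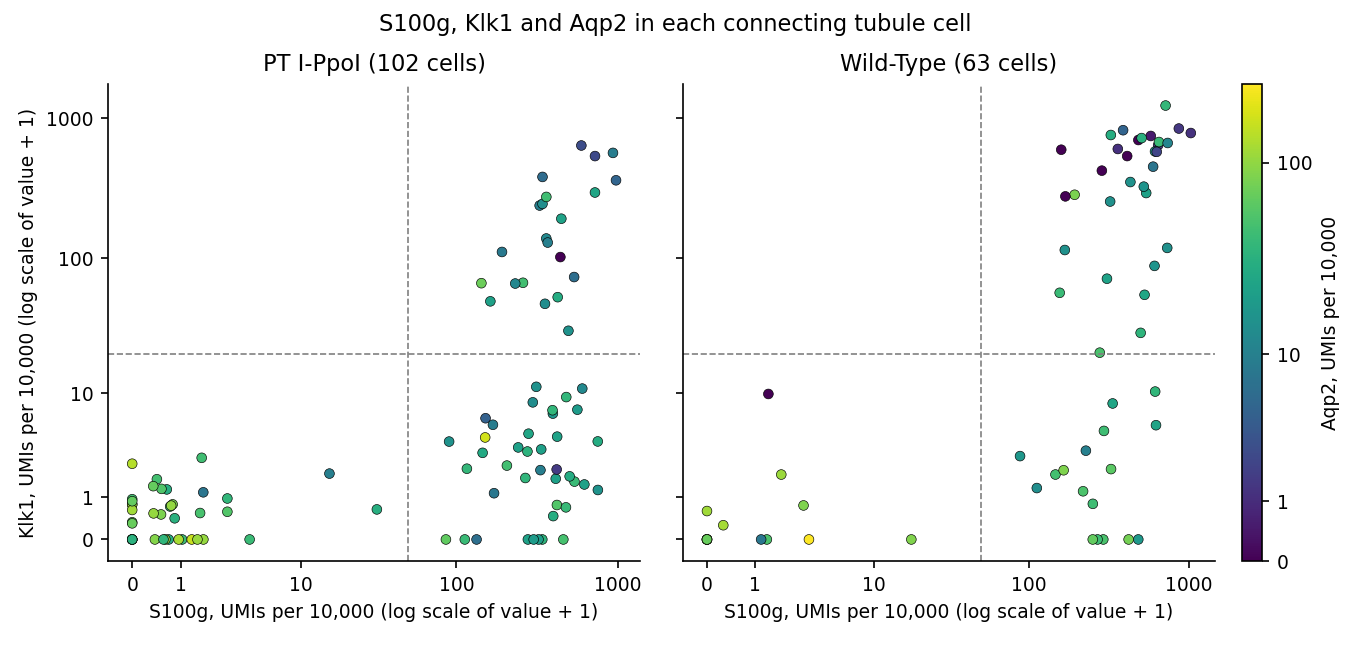
S100g (horizontal) and Klk1 (vertical) in each connecting tubule cell, in UMIs per 10000 on a log scale of value + 1, PT I-PpoI left and Wild-Type right, coloured by Aqp2. Dashed lines mark 50 for S100g and 20 for Klk1. Klk1-high cells lie only to the right of the S100g limit in both libraries.

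Within the S100g-high cells, Klk1 went with Fxyd2 and against Aqp2 in both libraries. Klk1-high cells were set against Klk1-low cells within each library, without the cells rich in other markers. Of 1756 genes measured in both, 9 (0.513%) were 2-fold or more higher in Klk1-high cells in both libraries and 10 (0.569%) were lower. Klk1 itself, which defined the sets, is among the 9. The others were Fxyd2, the gamma subunit of the sodium pump, the plasma membrane calcium pump Atp2b4, Klhl3 and Wnk1 of the pathway that regulates sodium-chloride cotransport, Cyp2j11, Abca13, the lipoprotein lipase gene Lpl and Gas6. Fxyd2 stood at 1489 CPM in Klk1-high and 130 CPM in Klk1-low cells of PT I-PpoI, and at 5182 and 244 CPM in Wild-Type. The 10 lower genes were Aqp2, Aqp3, Fxyd4, Car2, Stc1, Apela, Scin, Nectin3, Eif3f and Cd82. Aqp2 stood at 1775 CPM in Klk1-high and 3938 CPM in Klk1-low cells of PT I-PpoI, and at 1719 and 4496 CPM in Wild-Type.

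Across single S100g-high cells the Spearman correlation of Klk1 with Aqp2 was -0.42 over 61 PT I-PpoI cells and -0.62 over 45 Wild-Type cells. With Fxyd2 it was 0.31 in PT I-PpoI, against 0.78 in Wild-Type. Aqp2 and Fxyd4, both abundant in principal cells, had values of 0.61 and 0.77. The cells of a library share their preparation and free RNA and differ in depth, so these are descriptions. Pth1r, the parathyroid hormone receptor, had 18 UMIs in the 22 Klk1-high and 10 UMIs in the 39 Klk1-low cells of PT I-PpoI. In Wild-Type it had 87 UMIs in the 29 Klk1-high and 0 UMIs in the 16 Klk1-low cells.

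The S100g-low cells carried more principal cell and immediate early RNA than S100g-high cells, in both libraries. Of 2580 genes measured, 71 (2.75%) were 2-fold or more higher in S100g-low cells in both libraries and 39 (1.51%) were lower, again without the cells rich in other markers (40 against 61 cells in PT I-PpoI, 12 against 45 in Wild-Type). Aqp2 stood at 7236 CPM in S100g-low and 3125 CPM in S100g-high cells of PT I-PpoI, and at 10566 and 2426 CPM in Wild-Type. Fxyd4 and Aqp3 were likewise 2-fold or more higher in both libraries.

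Immediate early genes, which are induced within minutes of a stimulus, led the higher side. Egr1 stood at 666 and 14.9 CPM in PT I-PpoI (S100g-low, then S100g-high) and at 1262 and 32.2 CPM in Wild-Type. Fos (855 and 125 CPM in PT I-PpoI, 1612 and 134 CPM in Wild-Type), Fosb, Junb, Zfp36 and Ier2 showed the same order. So did Gdf15, a stress-induced secreted factor, and the channel gene Mcoln3. Median mitochondrial shares were lower in S100g-low cells, at 11.2% against 22.4% in S100g-high cells of PT I-PpoI and 8.83% against 17.8% in Wild-Type. The part of these shares in the differences was not tested.

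Kl, Spp1 and Vdr were on the lower side. Kl (klotho) stood at 262 CPM in S100g-low and 1841 CPM in S100g-high cells of PT I-PpoI, and at 204 and 1724 CPM in Wild-Type. Spp1 (osteopontin) stood at 435 and 3611 CPM in PT I-PpoI and at 195 and 5456 CPM in Wild-Type. Vdr, the vitamin D receptor, stood at 34.5 and 141 CPM in PT I-PpoI and at 48.8 and 211 CPM in Wild-Type. Atp2b4, Lpl, Clu, Wnk1, Fxyd2, Ly6a, Hoxd10 and Sostdc1 were also lower. Calb1, Slc8a1 and Trpv5 chose the cells, so their values are a description. Calb1 had S100g-low over S100g-high log2 ratios of -1.02 in PT I-PpoI, against -0.51 in Wild-Type. Slc8a1 was at -1.39 and -1.40, and Trpv5 at -2.43 and -1.46. Hsd11b2 and Scnn1a of the same segment had the other sign, with S100g-low over S100g-high log2 ratios of 0.42 in PT I-PpoI, against 0.63 in Wild-Type, for Hsd11b2, and of 1.06 and 0.90 for the sodium channel subunit Scnn1a. Since S100g-low cells were 40 of 102 in PT I-PpoI, against 14 of 63 in Wild-Type, sums over all cells mix the sets in different proportions, and ratios in S100g-high cells are given beside them for the transport genes and where the call of a list changed.

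**Figure D3:**
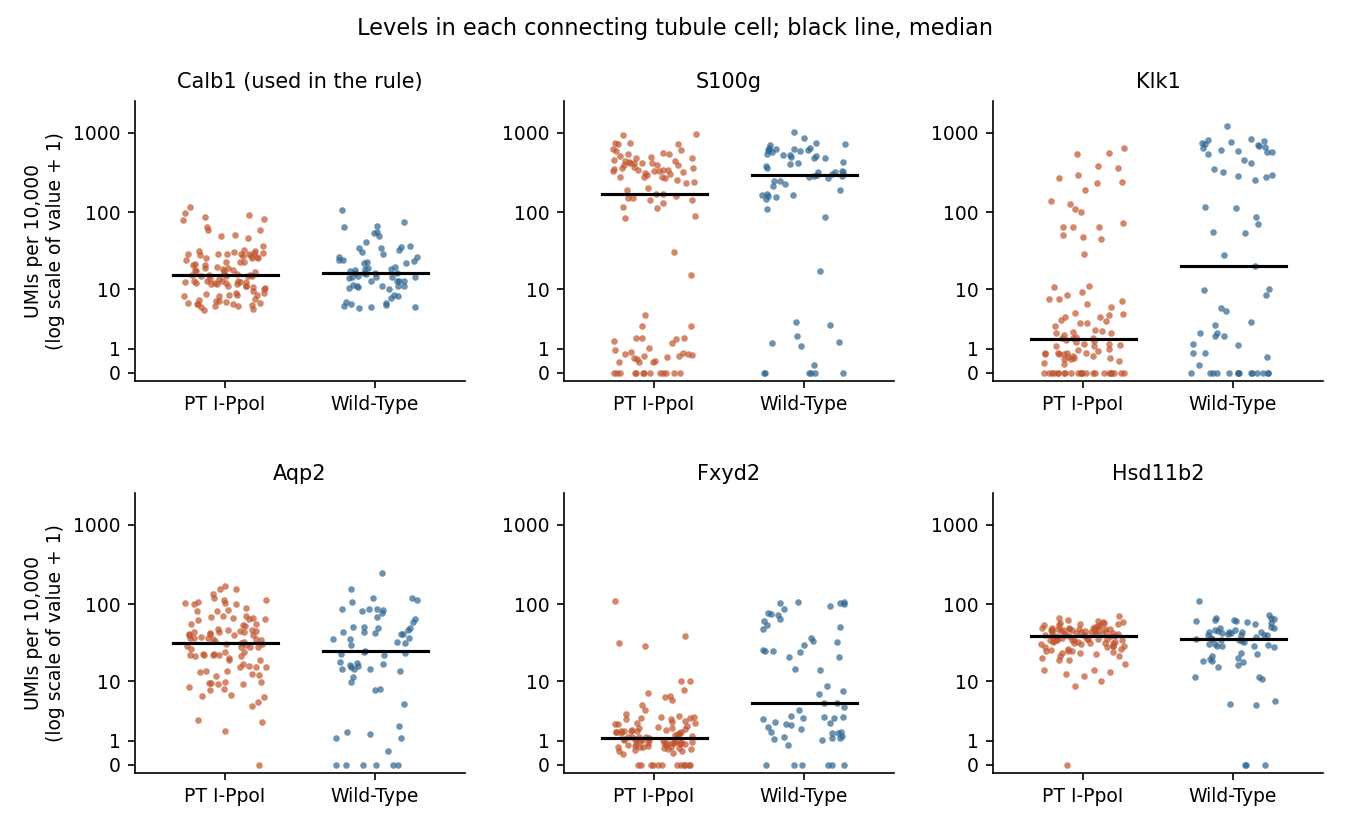
Level of 6 genes in each connecting tubule cell, in UMIs per 10000 on a log scale of value + 1, PT I-PpoI left of Wild-Type in each panel, with the median as a black line. S100g has an empty range around 50 in both libraries, and the Klk1 median is 1.63 in PT I-PpoI, against 20.4 in Wild-Type.

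Over all connecting tubule cells, 7673 genes had 30 or more UMIs summed over both libraries, and the median log2 ratio of PT I-PpoI over Wild-Type was 0.10. Of these, 354 (4.61%) were 2-fold or more higher and 153 (1.99%) were 2-fold or more lower. The counting interval left out 0 for 278 (3.62%) and 148 (1.93%). Without the 7 cells rich in other markers, 352 (4.7%) were higher and 96 (1.28%) lower. In S100g-high cells alone, 212 of 5615 (3.78%) were higher and 108 (1.92%) lower, with a median of 0.05. These shares are the background for the gene lists.

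Of 9 calcium genes measured outside the rule, 0 were 2-fold or more higher and 2 were lower in PT I-PpoI (Pth1r and Atp2b4), and 1 was lower in S100g-high cells. The list had a median log2 ratio of -0.74 over all cells and -0.35 in S100g-high cells. Pth1r had 34 UMIs in 16 of 102 PT I-PpoI cells and 105 UMIs in 24 of 63 Wild-Type cells. Its levels were 18.9 and 172 CPM, a log2 ratio of -3.17 (-3.79 to -2.62) over all cells and -2.56 in S100g-high cells. In cells thinned to 2000 UMIs, 4.95% of PT I-PpoI and 13.1% of Wild-Type cells had a Pth1r UMI, against 3.28% and 6.93% of immune cells, so the PT I-PpoI share lies near background.

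Calcium extrusion and binding differed less. Atp2b4 had 63 UMIs in PT I-PpoI, against 52 UMIs in Wild-Type (log2 -1.29, -1.84 to -0.73), and its log2 ratio was -0.83 in S100g-high cells. Atp2b1, another calcium pump, had an interval that held 0 (log2 -0.30, -0.69 to 0.10). S100g stood at 20640 and 34489 CPM over all cells (log2 -0.74), and at 38485 and 46225 CPM in S100g-high cells (log2 -0.26, -0.29 to -0.24). Vdr was at 89.4 CPM in PT I-PpoI, against 164 CPM in Wild-Type (log2 -0.88), and -0.59 in S100g-high cells. Kl had a log2 ratio of -0.26 over all cells and 0.11 in S100g-high cells, so its sign depended on the cells taken. Trpv6, the second calcium entry channel, had 14 UMIs in PT I-PpoI, against 2 in Wild-Type (log2 0.98, -0.88 to 4.43). The genes of the rule had ratios of -0.60 (Trpv5), -0.53 (Slc8a1) and -0.08 (Calb1).

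**Figure D4:**
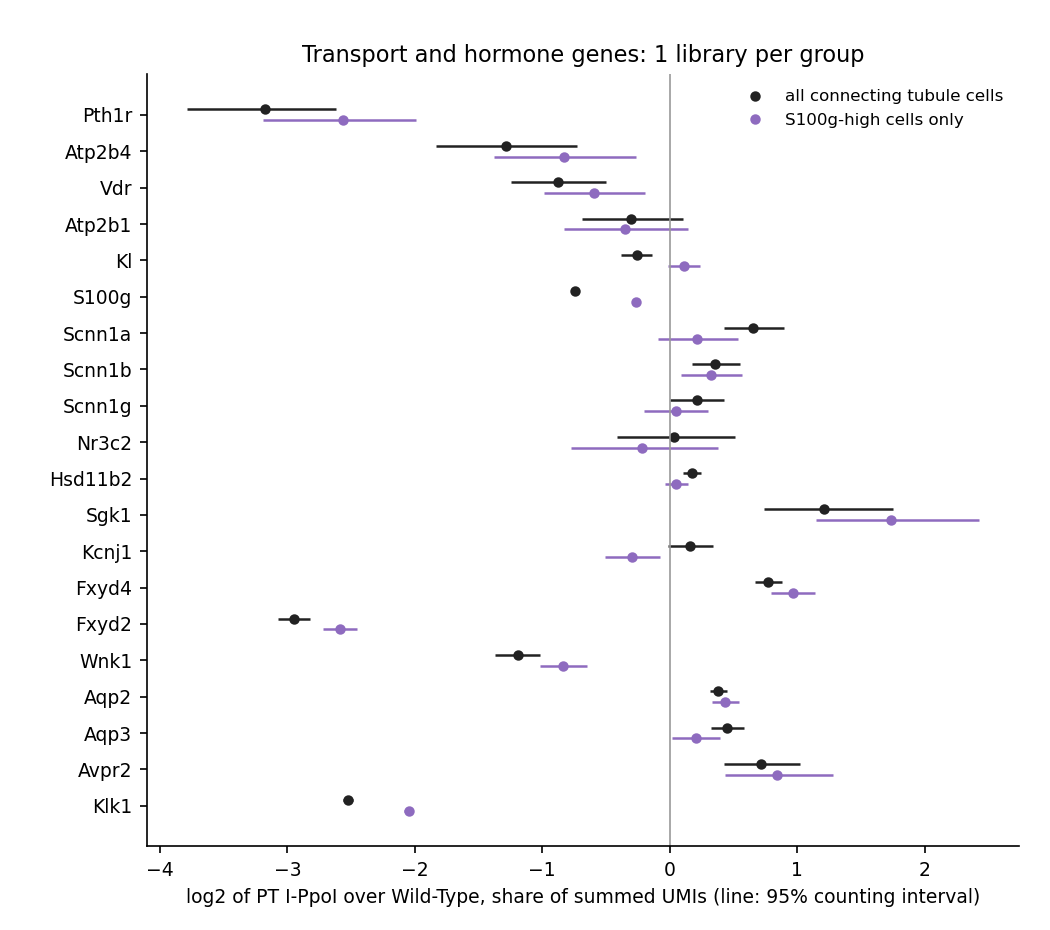
Log2 ratio of PT I-PpoI over Wild-Type for 20 transport and hormone genes in all connecting tubule cells (black) and in S100g-high cells (violet), with 95% counting intervals as lines. Pth1r, Fxyd2 and Klk1 lie furthest to the left in both.

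Sodium and potassium genes showed no common direction. Of 23 measured, 2 were 2-fold or more higher (Sgk1 and Tsc22d3) and 2 were lower (Fxyd2 and Wnk1), with a median of 0.13. In S100g-high cells 1 of 22 was higher and 1 lower, with a median of -0.03. The epithelial sodium channel subunits had log2 ratios of 0.65 (Scnn1a), 0.36 (Scnn1b) and 0.21 (Scnn1g) over all cells, and 0.22, 0.32 and 0.05 in S100g-high cells. The mineralocorticoid receptor Nr3c2 was at 0.03 (-0.41 to 0.51). Hsd11b2, which inactivates glucocorticoids and so protects that receptor, stood at 3905 CPM in PT I-PpoI, against 3461 CPM in Wild-Type (log2 0.17, 0.10 to 0.24). The potassium channel Kcnj1 was at 0.16 over all cells and -0.29 in S100g-high cells.

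Fxyd2 (chromosome 9, 45399669 to 45410278) had the lowest ratio of the list. It ranged over 0, 1.18 and 109 per 10000 in PT I-PpoI and over 0, 4.90 and 108 in Wild-Type. The ranges overlapped, and 1 PT I-PpoI cell held 38.6% of the UMIs of its group. The summed level was 393 CPM in PT I-PpoI, against 3035 CPM in Wild-Type (log2 -2.95, -3.08 to -2.82). Within Klk1-high cells the log2 ratio was -1.73 (-1.87 to -1.58). The PT I-PpoI cell with 38.6% of the UMIs is among them, and their medians were 2.39 per 10000 in PT I-PpoI, against 33.6 in Wild-Type. The distal convoluted tubule gate stood at 0.03 for the same gene and the principal cell gate at -1.65. Fxyd2 was abundant in free RNA, at 5627 CPM in PT I-PpoI, against 4166 CPM in Wild-Type, and immune cells thinned to 2000 UMIs had a UMI of it in 34.2% and 61.5% of cells, against 27.7% and 65.6% of connecting tubule cells. The share of cells with a UMI therefore reads as background. In S100g-high cells without those rich in other markers the log2 ratio was -2.61 before and -2.98 after subtraction of the estimated free RNA.

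Wnk1, a kinase that regulates sodium and potassium transport, stood at 339 CPM in PT I-PpoI, against 775 CPM in Wild-Type (log2 -1.19), with -0.84 in S100g-high cells. Sgk1, an aldosterone-induced kinase that keeps the sodium channel at the membrane, stood at 149 and 63.9 CPM (log2 1.21, 0.74 to 1.75). In S100g-high cells it was further apart, at 1.74, and it was read in 43 of 62 PT I-PpoI and 14 of 49 Wild-Type cells. In thinned PT I-PpoI cells the share with a Sgk1 UMI was 19.8%, beside 10.0% of immune cells. In thinned Wild-Type cells it was 6.56%, beside 9.38% of immune cells. Whether immune cells lack Sgk1 of their own was not tested, so no background is read from these shares. The sodium pump subunit Atp1b1 was at 0.01 (-0.07 to 0.08).

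Aqp2 (chromosome 15, 99579055 to 99584547) was read at 5 or more per 10000 in 97 of 102 PT I-PpoI cells (95.1%, 88.9 to 98.4) and 50 of 63 Wild-Type cells (79.4%, 67.3 to 88.5). After thinning it was so in 96 of 101 PT I-PpoI cells and 49 of 61 Wild-Type cells. It ranged over 0, 32.7 and 173 per 10000 in PT I-PpoI and over 0, 25.2 and 252 in Wild-Type, and the ranges overlapped almost wholly. Its level was 5008 CPM in PT I-PpoI, against 3846 CPM in Wild-Type (log2 0.38). Of 8 water transport and vasopressin genes, 1 was 2-fold or more higher, 0 were lower and the median was 0.41. All 8 had a ratio above 0 over all cells, against 5 of 8 in S100g-high cells, where the median was 0.32. The vasopressin receptor Avpr2 was at 0.71 and Aqp3 at 0.45 over all cells, and at 0.84 and 0.20 in S100g-high cells. The higher gene, Aqp4, was read in 27 PT I-PpoI and 3 Wild-Type cells, and 1 PT I-PpoI cell held 40.9% of its UMIs.

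Heat shock genes were among the highest in PT I-PpoI. Hspa1a and Hspa1b (chromosome 17), near-identical copies of the inducible Hsp70 gene whose reads can be exchanged, stood at 651 and 396 CPM in PT I-PpoI and at 73.7 and 78.7 CPM in Wild-Type. Their log2 ratios were 3.13 (2.71 to 3.61) and 2.32 (1.91 to 2.78), and 3.16 and 2.68 in S100g-high cells. Hspa1a was read in 91 of 102 PT I-PpoI cells and 26 of 63 Wild-Type cells. Of 17 heat shock genes, 5 were 2-fold or more higher and 0 lower, with a median of 0.23. The others were Hspb1, Hsph1 and Cryab. The distal convoluted tubule gate had a ratio of 1.01 for Hspa1a and the principal cell gate 1.84.

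Immediate early genes had 5 of 18 2-fold or more higher and a median of 0.63 over all cells, but 0 of 12 higher and a median of 0.12 in S100g-high cells. Junb (1.03), Klf6 (1.44), Cyr61 (1.61) and Fosl2 (2.14) were among the 5. Of the Fos UMIs, 718 of 835 came from S100g-low cells in PT I-PpoI, against 198 of 268 in Wild-Type. Interferon response genes had 6 of 13 higher, with a median of 0.92, on few UMIs. Irgm1 had 47 UMIs in PT I-PpoI, against 3 in Wild-Type (log2 2.20, 0.77 to 4.74), and Psmb8 had 67 and 8 (1.43, 0.44 to 2.77). In S100g-high cells 3 interferon genes were measured, and all 3 were higher. MHC class I genes had 1 of 13 higher and a median of 0.56.

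MHC class II genes had 4 of 4 2-fold or more lower, with a median of -1.69 over all cells. Without the 7 cells rich in other markers, 3 genes were measured and their median was 0.22. The lower values thus rested on those cells, of which 1 Wild-Type cell was rich in immune markers. For Cd74, with an interval of -3.03 to -1.63 over all cells, 1 Wild-Type cell held 81.6% of the UMIs.

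Genes of tubular injury lay on both sides. Of 12 measured, 5 were 2-fold or more higher and 1 was lower, with a median of 0.58. Lcn2, an iron-binding protein secreted by stressed tubules, had 79 UMIs in PT I-PpoI, against 5 in Wild-Type (log2 2.29, 1.14 to 4.08), and Anxa2 stood at 73.9 and 19.7 CPM (log2 1.86). Of the Lcn2 UMIs, 71 of 79 in PT I-PpoI and 5 of 5 in Wild-Type lay in S100g-low cells. Cryab had a log2 ratio of 1.19, and 1.12 in S100g-high cells. Without the 7 cells rich in other markers, 3 genes of the list were higher and 2 lower. In S100g-high cells 3 of 10 were higher and 1 lower. Clu (clusterin), often raised in injured tubules, went the other way, at 471 CPM in PT I-PpoI, against 1426 CPM in Wild-Type (log2 -1.60, -1.74 to -1.46), and at -1.25 in S100g-high cells.

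DNA damage lists had few genes past 2-fold in the connecting tubule, a segment the series title does not name as a site of I-PpoI expression. Of 19 p53 targets, 0 were 2-fold or more higher and 1 was lower, with a median of 0.21. That gene was Ddit4l, an inhibitor of mTOR signalling, at 61.1 CPM in PT I-PpoI, against 175 CPM in Wild-Type (log2 -1.52). Without the 7 cells rich in other markers 1 target was higher and 1 lower, as was so of the 14 measured in S100g-high cells, where the higher one was Gdf15 (log2 1.31). Non-homologous end joining had 0 of 9 genes past 2-fold in either direction and a median of 0.21. Homologous recombination had 0 of 5 and a median of -0.01, and 1 lower (Atr, log2 -1.06) without the 7 cells. Cell cycle genes had 1 of 10 higher (Stmn1, 30 UMIs in PT I-PpoI, against 3 in Wild-Type) and 0 lower, with a median of 0.21, and 73.3% of the PT I-PpoI UMIs of Stmn1 lay in 1 cell. The senescence and secretion list had 0 of 4 higher and 1 lower (Igfbp5, log2 -2.02), with a median of -0.45. Without the 7 cells no gene of the cell cycle or the senescence list was past 2-fold.

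Few metabolic genes were past 2-fold. The nuclear respiratory chain had 0 of 39 past 2-fold and a median of 0.14, the 13 mitochondrially encoded genes 0 and -0.13, glycolysis 0 of 14 and 0.33, and cholesterol synthesis 0 of 12 and 0.20. Fatty acid oxidation had 0 of 23 higher and 2 lower (Fabp3 and Ehhadh), with a median of 0.02. The unfolded protein response had 0 of 17 past 2-fold and a median of -0.27 (-0.32 in S100g-high cells), with 6 ratios above 0 and 11 below, beside a median of 0.10 over all genes. NRF2 and glutathione genes had 2 of 18 higher and 1 lower, with a median of -0.13. The glutathione transferases Gstm1 and Gstm2 had log2 ratios of 1.18 and 1.46, and Gpx3 one of -6.14. Gpx3 is abundant in proximal tubule. Of its Wild-Type UMIs 47.2% came from 1 cell, and without the cells rich in other markers its log2 ratio was -4.39.

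Among the remaining lists, nucleolar genes had 1 of 21 higher and a median of 0.02, prostaglandin genes 1 of 7 and 0.02, and NF-kB signalling 0 of 8 and 0.38. No gene of these 3 lists was 2-fold or more lower. Junction and keratin genes had 1 of 14 higher and 1 lower, with a median of 0.46, and the magnesium and early distal list had 1 of 5 higher and 1 lower, with a median of -0.10. Of 20 distal transcription factors, 2 were higher and 0 lower, with a median of 0.28. Without the 7 cells rich in other markers, 1 of 20 distal transcription factors was higher and 0 lower. Of 13 junction and keratin genes measured without them, 1 was higher and 0 lower. In S100g-high cells 0 of 19 distal transcription factors were past 2-fold, with a median of 0.03, and 0 of 12 junction and keratin genes, with a median of 0.13. No nucleolar or prostaglandin gene measured there was past 2-fold either. Pax2 was at 1.14, against 0.80 in S100g-high cells, and Elf5 had 34 UMIs in PT I-PpoI, against 0 in Wild-Type.

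The genes with the largest ratios over all cells showed how single cells can carry such sums. Ren1, the renin gene, had 3035 UMIs in PT I-PpoI, against 0 in Wild-Type, at least 343-fold higher against a floor of 3 UMIs in the Wild-Type sum, and 99.5% of them came from the 1 cell rich in mural markers. Without that cell Ren1 had 15 UMIs in PT I-PpoI. All 130 UMIs of Akr1b7, also known from renin cells, came from that cell. Spread over many cells were Egf (122 UMIs in 63 PT I-PpoI cells and 3 UMIs in 3 Wild-Type cells, log2 3.57, 2.20 to 6.08), Rasgrf2 (2.56), Crip1 (2.13), F2rl1 (1.91), Arl4d (1.86) and Anxa2. Of these genes, Crip1 was at 0.77 in S100g-high cells without those rich in other markers, and the others were at 1.29 or more. Plet1 had a log2 ratio of 2.18, with 42.5% of its PT I-PpoI UMIs in 1 cell. Egf is abundant in the distal convoluted tubule, where the gate held it at 3159 CPM in PT I-PpoI, against 1175 CPM in Wild-Type.

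The 12 lowest ratios were largely those of proximal tubule genes. Pck1, Cyp2j5, Fut9, Napsa, Pdzk1, Gcnt1, Apob, Snhg11 and Ugt2b38 had 0 UMIs in PT I-PpoI cells. Pck1, with 91 UMIs in Wild-Type, was at least 89.5-fold lower in PT I-PpoI against a floor of 3 UMIs in the PT I-PpoI sum. Miox had 1 UMI in PT I-PpoI, against 145 in Wild-Type (log2 -8.16, -14.05 to -6.24), and Slc5a2 had 1 and 64 (log2 -6.99, -12.89 to -5.03). Kap was read in 63 of 63 Wild-Type cells, and 1 of them held 70.2% of its UMIs. Without the cells rich in other markers, Miox had 1 UMI in PT I-PpoI, against 38 in Wild-Type, Slc5a2 had 1 and 15, and Kap had 16 and 307. Pck1 then had 0 and 18, at least 20.3-fold lower in PT I-PpoI. The Wild-Type cells left held 15 UMIs of Napsa, 10 of Pdzk1, 9 each of Cyp2j5 and Fut9 and 7 of Gcnt1. They held 6 UMIs of Apob, 4 of Ugt2b38 and 2 of Snhg11. Over all 63 Wild-Type cells each of these genes from Napsa to Snhg11 had 31 to 44 UMIs. For each of the 12 genes 1 Wild-Type cell held 24.1% or more of the UMIs, and Kap was at 400 CPM in PT I-PpoI, against 11358 CPM in Wild-Type free RNA.

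A further selection, made after these values were seen, took S100g-high cells without those rich in other markers, 61 in PT I-PpoI, against 45 in Wild-Type. It kept genes read in 50% or more of the cells of the higher group, with at most 25% of that group's UMIs in 1 cell. Genes also needed 50 CPM and 30 UMIs in that group and an interval without 0. After free RNA subtraction they had to keep their sign and 50% or more of that group's UMIs. The limit on 1 cell did not cover the lower group, so the PT I-PpoI cell with the largest share of Fxyd2 UMIs is included. Genes entered it through the group where they were high, and PT I-PpoI S100g-high cells were deeper (median 14662.5 UMIs, against 8428 in Wild-Type), so no count of the selection is read. In this setting 210 of 5372 genes (3.91%) were 2-fold or more higher and 75 (1.4%) lower, with an interval without 0 for 146 (2.72%) and 72 (1.34%). Hspa1a (591 CPM in PT I-PpoI, 54.6 CPM in Wild-Type) and Hspa1b led the higher side, followed by Mpzl1 (2.12), Raph1 (1.79), Sgk1 (1.71), Cetn3 (1.65) and Mt2, a metallothionein (1.48). Tmsb4x, which binds actin monomers, had the most UMIs of the 14 highest genes, at 4848 CPM in PT I-PpoI, against 1845 CPM in Wild-Type (log2 1.39, 1.28 to 1.51), and was read in 61 of 61 and 43 of 45 cells.

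On the lower side stood Lrp2 (-3.54), the proximal tubule receptor megalin, then Fxyd2 (-2.61), Klk1 (-2.03), Slc25a30 (-1.80), the netrin Ntn4 (-1.69), Lad1 (-1.53), Mymx (-1.52), Slc7a8 and Ddit4l (-1.37 each), Clu (-1.31) and Lpl (-1.14). Clu stood at 787 CPM in PT I-PpoI, against 1947 CPM in Wild-Type. In the principal cell gate Clu had the opposite sign (1.59), and in the distal convoluted tubule gate Lpl did (1.00). None of these differences between gates was tested, since each gate had 1 library per group.

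**Figure D5:**
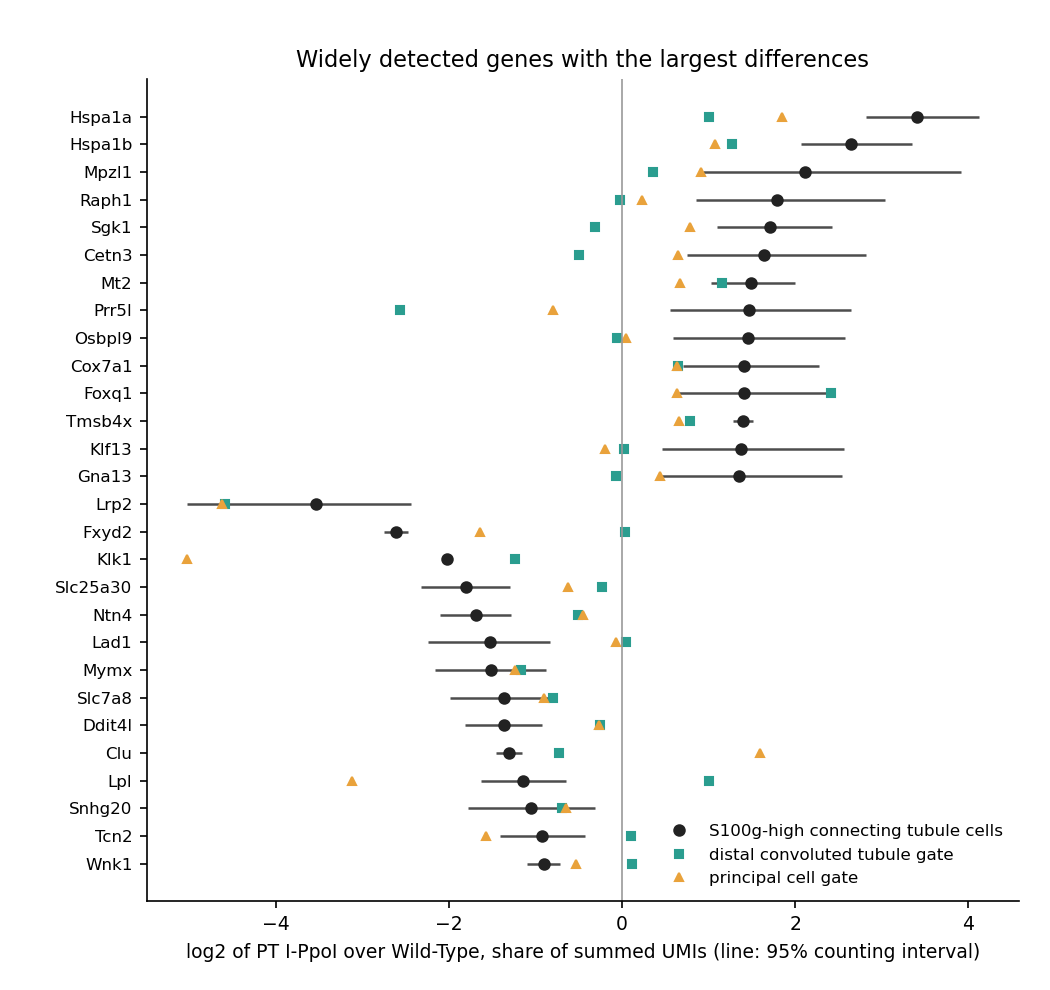
Log2 ratio of PT I-PpoI over Wild-Type for the 14 highest and 14 lowest genes of the selection in S100g-high connecting tubule cells (black, with 95% counting intervals), beside the distal convoluted tubule gate (squares) and the principal cell gate (triangles). Fxyd2 lies at -2.61 in the connecting tubule and 0.03 in the distal convoluted tubule gate.

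Set against the neighbouring segments within each library, fewer genes were past 2-fold against principal cells than against the distal convoluted tubule. Over the distal convoluted tubule gate, 497 of 6576 genes (7.56%) were 2-fold or more higher in both libraries and 223 (3.39%) lower. Over the principal cell gate, 104 of 5619 (1.85%) were higher and 189 (3.36%) lower. The gates differ in depth and number of cells, so the counts are a description.

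Over the distal convoluted tubule gate, Hsd11b2 stood at 3905 CPM in connecting tubule cells and 68.4 CPM in that gate in PT I-PpoI, and at 3461 and 30.5 CPM in Wild-Type. The potassium channel subunit Kcne1, caveolin Cav1, Spink8, the transcription factors Ehf and Gata2, Mcoln3 and Avpr2 were the other leading genes. On the lower side stood Pvalb (2.78 and 1255 CPM in PT I-PpoI, 0 and 838 CPM in Wild-Type), which marks the early distal convoluted tubule, with Uroc1, Ppp1r1a, Egf, Ckb, Sfrp1, the magnesium channel Trpm6 and Wfdc15b.

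Over the principal cell gate, S100g stood at 20640 CPM in connecting tubule cells and 992 CPM in that gate in PT I-PpoI, and at 34489 and 3761 CPM in Wild-Type. Kl (1084 and 92.6 CPM in PT I-PpoI, 1296 and 177 CPM in Wild-Type), Klk1, Tmem52b, the kininogen Kng2, Pgam2, Fzd7 and Serpinb1a followed. Kng2, the precursor of the kinins that kallikrein releases, was at 193 and 34.0 CPM in PT I-PpoI and at 400 and 53.6 CPM in Wild-Type. Muc20, S100a6, Ranbp3l, Plet1, Aqp4, Defb29, Akr1b3 and Lcn2 were lower in connecting tubule cells. Aqp4, the basolateral water channel of principal cells, stood at 143 CPM in connecting tubule cells and 1481 CPM in that gate in PT I-PpoI, and at 26.2 and 814 CPM in Wild-Type.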

How the data were processed

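The deposited files of the authors hold raw UMI counts per gene and barcode, unfiltered, for 31053 genes. Libraries were made with the 10x 3' v3.1 kit, per the labels' protocols. The submitters' processing notes name mm10, Cell Ranger 3.1 and Seurat 3, without their roles. No column of another sample was present (0).

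Barcodes with 1000 or more UMIs, 200 or more genes and at most 50% mitochondrial UMIs were kept. The libraries held 93257620 UMIs (PT I-PpoI) and 107977310 UMIs (Wild-Type), which with 102 and 63 cells limits precision to the intervals printed. Counts were summed over the cells of each library, scaled to CPM, and given as log2 ratios with a prior of 0.5 counts. Intervals are Clopper-Pearson for shares and exact conditional binomial for ratios. Genes of 30 or more UMIs entered, without the 8 genes of the rule, and 2-fold was the limit. With 1 library per group no test was run. The ratio step was checked on simulated data.

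Named genes were the 12 highest and 12 lowest ratios at 50 CPM and 30 UMIs or more in the higher library, with an interval without 0 and the same sign after free RNA subtraction and TMM scaling. Left out were sex-linked, immunoglobulin, haemoglobin, ribosomal and mitochondrial genes and unnamed models. Up to 4 genes per list could be named, and any of the calcium, sodium and potassium, water and kallikrein lists. Against each neighbour 8 genes each way were named. The cells, lists and limits were chosen with earlier results of these data known. The division by S100g and Klk1 and the last selection were added after values were seen. Doublets were not removed. Scrublet (scanpy 1.11.5) marked 58 (PT I-PpoI) and 312 (Wild-Type) barcodes and none of the connecting tubule cells. TMM factors came from edgeR 4.0.16, and other steps from Python 3.11.15 with numpy 2.4.6, scipy 1.17.1 and pandas 2.3.3. Gene coordinates are from GENCODE M21 on GRCm38.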

Additional observations from a re-analysis of the deposited data

How the results depend on the processing

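No paired analysis was possible because each group has 1 library, and no library could be left out. The 2-fold count of higher genes, 354, was 213 with Calb1 at 10 or more, 212 in S100g-high cells, 73 with Aqp2 below 5, 1225 with genes of 1 or more UMI and 50 in cells thinned to 2000 UMIs. The count of lower genes, 153, was 98 with 2 or more UMIs of Slc8a1 and Trpv5, 39 with Aqp2 below 5, 96 without cells rich in other markers (added after the values were seen), 1777 with genes of 1 or more UMI and 29 after thinning. The cause was not tested, though 802 genes could be counted with Aqp2 below 5 and 1544 after thinning. The share of kept barcodes in PT I-PpoI was 1.52% with Calb1 at 10 or more, 1.24% with 2 or more UMIs, 0.0985% with Aqp2 below 5 and 1.22% for S100g-high cells. In Wild-Type it was 0.317% with 2 or more UMIs, 0.780% at 2000 UMIs or more, 0.125% with Aqp2 below 5 and 0.471% for S100g-high cells. The Wild-Type share with Aqp2 at 5 or more was 66.7% with 2 or more UMIs. The MHC class II median was 0.22 without cells rich in other markers, the 1 sign change among list medians of 2-fold or more. Medians nearer 0 changed sign too, such as NRF2 and glutathione (0.10 without those cells) and the mitochondrially encoded genes (0.13 in S100g-high cells). Of the other list medians 280 stayed within their spread and 27 moved beyond it, and 207 and 16 named gene ratios did so. TMM and median-of-ratios scaling shifted all log2 ratios by -0.08 and -0.07 and made the counts 285 higher and 183 lower in both. Depth limits genes such as Trpv6 and Klk1b5, with 2 and 25 UMIs in Wild-Type.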
